A study of Mus musculus with 17 samples.

Results

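Transcripts of 10 genes that carry fatty acids into mitochondrial beta oxidation were followed in antibody-secreting cells (ASCs) of bone marrow from young and aged mice. The genes were Acsl1 and Acsl4 (activation), Cpt1a and Cpt2 (the carnitine shuttle), Acads, Acadm, Acadl and Acadvl (acyl-CoA dehydrogenases) and Hadha and Hadhb (the trifunctional protein). Every probe of the Illumina MouseWG-6 v2 array that the platform annotation, or the supplementary probe table of the paper, names for 1 of these genes was taken. This gave 17 of the 45281 probes on the array, for 9 of the 10 genes, because no probe was named for Hadha. A probe was called detected in a sample where its deposited detection p-value was under 0.05, and a probe was tested if it was detected in 7.5 or more of the 15 samples and spanned at least 1.2-fold. Of the members, 11 probes of 8 genes were tested, among 11073 probes in all.

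A fatty acid is used for energy only after an acyl-CoA synthetase has joined it to coenzyme A. Long chains are then passed to carnitine, carried across the inner mitochondrial membrane and shortened in repeated rounds, in which an acyl-CoA dehydrogenase suited to the chain length acts first and the trifunctional protein completes the round for long chains. Long-lived plasma cells of bone marrow secrete antibody for long periods and are known to depend on mitochondrial respiration.

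The young mice were 6 to 8 weeks of age and the aged mice over 17 months, and their strain and sex were not given in the sources used here. ASCs of hind leg bone marrow were sorted as live cells by a gate that included CD138 and left out cells with CD3, CD14 or IgD. The 9 young and 6 aged samples were measured on 17 arrays, since young samples 3 and 4 had 2 arrays each, which were averaged. Cells came from single mice or, where few, from pools, which samples were pools is not given, and the paper names more aged mice than there are aged samples, so that pooling and age cannot be told apart and the spread may not be one between mice.

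A sample had 8998 to 17120 detected probes (young median 12368, aged median 12506). Young sample 2 had the lowest mean correlation with the others (0.784). Of all tested probes 153 passed an adjusted p of 0.05 (limma, Benjamini-Hochberg adjustment), which is 1.38% of them. The sorted populations differed in marker transcripts. Of the 12 tested plasma cell markers 4 were higher in the aged at the adjusted threshold, and their summed signal was 14920 to 21230 in young and 21430 to 41210 in aged samples. Sdc1, which encodes CD138, was too dim to be tested, with a detected signal in only 1 young but 5 aged samples. Of the 8 tested markers of B cell precursors 7 had lower means in the aged, 5 of them at the adjusted threshold, with sums of 7053 to 11910 in young and 4298 to 5599 in aged samples. All 5 tested markers of cycling cells had lower means in the aged, 3 of them at an unadjusted p under 0.05 and 1 at the adjusted threshold (limma). Their sums were 3292 to 5664 in young and 2290 to 3586 in aged samples. Markers of cells outside the gate were present as well. All 6 tested markers of basophils or mast cells had lower means in the aged, 3 of them at an unadjusted p under 0.05 and 0 at the adjusted threshold (limma), with sums of 6854 to 17370 in young and 5887 to 13830 in aged samples. Of 12 neutrophil markers 9 had lower means and 3 higher, 0 of them past the adjusted threshold and 1 in each direction at the unadjusted one, with sums of 25330 to 60070 and 24420 to 51740. The part of these shifts in the values below was not tested, and in such bulk samples fewer cells of a type and less RNA per cell cannot be told apart. Plin1 and Adipoq, defining markers of the lipid-storing adipocytes of marrow, had no named probe, and the sum of the only tested adipocyte gene, Fabp4, was 241.1 to 526 in young and 271.9 to 1220 in aged samples.

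None of the 11 tested member probes differed between aged and young ASCs at an adjusted p under 0.05. The smallest adjusted p was 0.162, at a probe of Acadvl (limma). At an unadjusted p under 0.05, Acads and 1 probe of Acadvl were higher in the aged and Acsl1 was lower, which is 2 and 1 of 11 probes. Among all tested probes 8.81% were higher and 5.27% lower at that threshold. The probe of Acsl1 was named only through a table of probes that differed in these samples, so that its place in the lower count was set by how it was chosen and nothing is read from it. The paper had also reported Acads, Acadvl and Acsl4 as higher in the aged in these samples, and the genes were chosen with such results known. The higher count was therefore no fair draw to set against 8.81%, and nothing is read from it either. The methods' t-test gave 2 higher and 1 lower and 0 after Benjamini-Hochberg adjustment. The unadjusted counts moved with the processing, to 3 higher and 0 lower under scaling by the 75th percentile of the arrays (Acsl1 unadjusted p = 0.0743, limma), to 1 and 0 with the sample number as a block, and to 1 to 2 higher and 0 to 3 lower when 1 sample was left out. The mean signal was higher in the aged at 4 and lower at 7 member probes, against 48.2% higher among all tested probes. The higher ones include 2 of Acadvl, and the lower ones 2 each of Acsl4 and Cpt2 and that of Acsl1. Probes of 1 gene are not independent, so no lean of the genes is read from these counts. The median log2 difference, aged minus young, was -0.11 over the members and -0.01 over all tested probes. Under the 75th percentile scaling the mean was higher at 5 and lower at 6 member probes, and the median over all tested probes rose to 0.05. At 0 of the 11 member probes were the groups separate. Among all tested probes 0.443% had every aged sample above every young one and 0.217% every aged sample below, so that 0 of 11 is near the background.

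**Figure D1:**
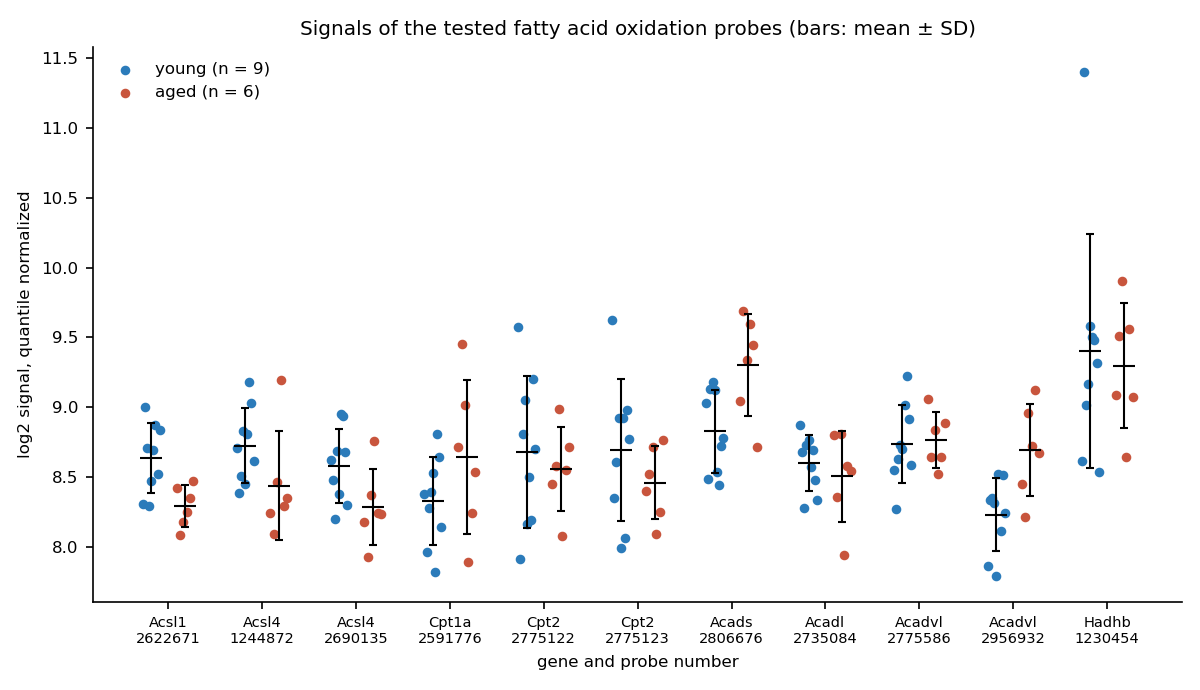
The log2 signal after quantile normalization is plotted on the vertical axis for each of the 11 tested probes, with 1 point for each of the 9 young and 6 aged samples and bars for the mean ± SD. The groups overlap at every probe, most of the aged samples of Acads and of the right-hand Acadvl probe lie above the young mean, and 1 young sample of Hadhb reaches 11.40.

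The stretches before the transcription starts are shown for the 3 genes with an unadjusted p under 0.05 and for Hadhb, whose start lies close to that of Hadha. All 10 genes matched an entry in RefSeq on the GRCm38.p6 build, with 11 starts because Acsl1 has 2, and in each the 250 bases before the start were searched on both strands. Capitals mark the GC box GGGCGG, the CCAAT box CCAAT and the nuclear receptor element AGGTCA, on either strand.
Acsl1, upstream start, chr8:46470787-46471036, plus strand: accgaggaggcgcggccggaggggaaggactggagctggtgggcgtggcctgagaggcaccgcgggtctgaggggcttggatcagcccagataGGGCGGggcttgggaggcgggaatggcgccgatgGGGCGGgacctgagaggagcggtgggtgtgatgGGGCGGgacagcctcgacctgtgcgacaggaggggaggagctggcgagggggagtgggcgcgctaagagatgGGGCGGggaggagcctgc
Acads, chr5:115119347-115119596, minus strand: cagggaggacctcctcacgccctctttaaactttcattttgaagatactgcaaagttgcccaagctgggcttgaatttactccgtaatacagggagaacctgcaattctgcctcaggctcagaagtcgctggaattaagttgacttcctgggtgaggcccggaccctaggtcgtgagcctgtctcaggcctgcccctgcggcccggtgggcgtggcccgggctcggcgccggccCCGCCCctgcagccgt
Acadvl, chr11:70015429-70015678, minus strand: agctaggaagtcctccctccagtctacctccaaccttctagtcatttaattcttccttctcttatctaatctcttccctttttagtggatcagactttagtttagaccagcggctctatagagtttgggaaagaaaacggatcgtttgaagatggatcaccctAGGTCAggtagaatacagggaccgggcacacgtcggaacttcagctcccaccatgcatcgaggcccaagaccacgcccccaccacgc
Hadhb, chr5:30155003-30155252, plus strand: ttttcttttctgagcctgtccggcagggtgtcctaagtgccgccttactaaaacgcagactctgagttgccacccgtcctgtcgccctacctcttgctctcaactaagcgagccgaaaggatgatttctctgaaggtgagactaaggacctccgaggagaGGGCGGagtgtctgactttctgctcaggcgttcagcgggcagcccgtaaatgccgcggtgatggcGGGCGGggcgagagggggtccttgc

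GC boxes, read by factors of the Sp family, were found in 8 of the 11 windows, against 32.7% of 32851 windows of this length. The windows of Acadl and of the upstream start of Acsl1 held 4 each, and that of the downstream start of Acsl1 held 0. The AGGTCA element was found before Cpt1a, Acadm and Acadvl, against 14% of all windows. The CCAAT box was found in 2 windows, those of Cpt1a and the downstream start of Acsl1, against 33.8%. The longer estrogen-related receptor element TCAAGGTCA, which contains AGGTCA, and the repeat of AGGTCA with a base between, bound by peroxisome proliferator-activated receptors, were in none of the 11 windows, and in 0.387% and 0.0335% of all windows. The TATA box TATAAA was also in none, against 12.4%. Base composition differed along with these counts. The share of G or C bases was 72% at the upstream and 48.4% at the downstream start of Acsl1. It was 60.4% at Acads and 49.6% at Acadvl, and the median window had 52.4%. These matches describe letters only. The transcription starts of Hadha and Hadhb lie 273 bases apart on opposite strands, so that 228 bases of their windows are the same DNA.

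Activation was represented by Acsl1 and Acsl4. Acsl1 is a long-chain acyl-CoA synthetase of mitochondria and the endoplasmic reticulum. Its single probe, ILMN_2622671 (NM_007981), is named only by the supplementary table of probes that differed in these same samples, so that its difference is a description of a probe chosen for differing. Its log2 signal was lowest at 8.29, median 8.69 and highest at 9.00 in the 9 young samples, and 8.09, 8.30 and 8.47 in the 6 aged. All 6 aged samples lay below the young median and 3 lay below every young sample, while the highest aged samples overlapped with the lowest young. The young mean was 8.63 ± 0.25 (SD, n = 9) and the aged mean 8.29 ± 0.15 (SD, n = 6), a log2 difference of -0.34 with a 95% interval of -0.64 to -0.04 (adjusted p = 0.285, limma). It was detected in all 9 young but in 4 of 6 aged samples.

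Acsl4, which prefers arachidonic acid and other long polyunsaturated chains, had 4 probes. The 2 tested probes had close values. At ILMN_1244872 (NM_019477) the young samples had a lowest log2 signal of 8.38, a median of 8.71 and a highest of 9.18, and the aged 8.10, 8.32 and 9.19. Here 4 aged samples lay below all young samples but aged sample 4 lay above all of them. The log2 difference was -0.29 (standard error 0.18, adjusted p = 0.527, limma), and it was -0.44 without aged sample 4 (adjusted p = 0.250). At ILMN_2690135 (NM_207625) the difference was -0.30 (standard error 0.15, adjusted p = 0.408), with 5 of 6 aged samples below the young median.

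The remaining probes of Acsl4 were detected in too few samples to be tested. Their differences had the opposite sign, 0.28 at ILMN_2696375 (NM_207625) with a 95% interval of 0.02 to 0.53, and 0.34 at ILMN_3136205 (NM_001033600) with an interval of -0.14 to 0.81, in a limma fit of all probes. The first of them was detected in 2 young samples out of 9 and in 5 aged samples out of 6. The second was detected in 2 young and 3 aged samples, and its aged mean contained 1 sample at 9.75 with the median of the aged at 8.13. The text of the paper lists Acsl4 as higher in the aged without naming a probe. That is the sign of these dim probes and not of the tested ones.

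**Figure D2:**
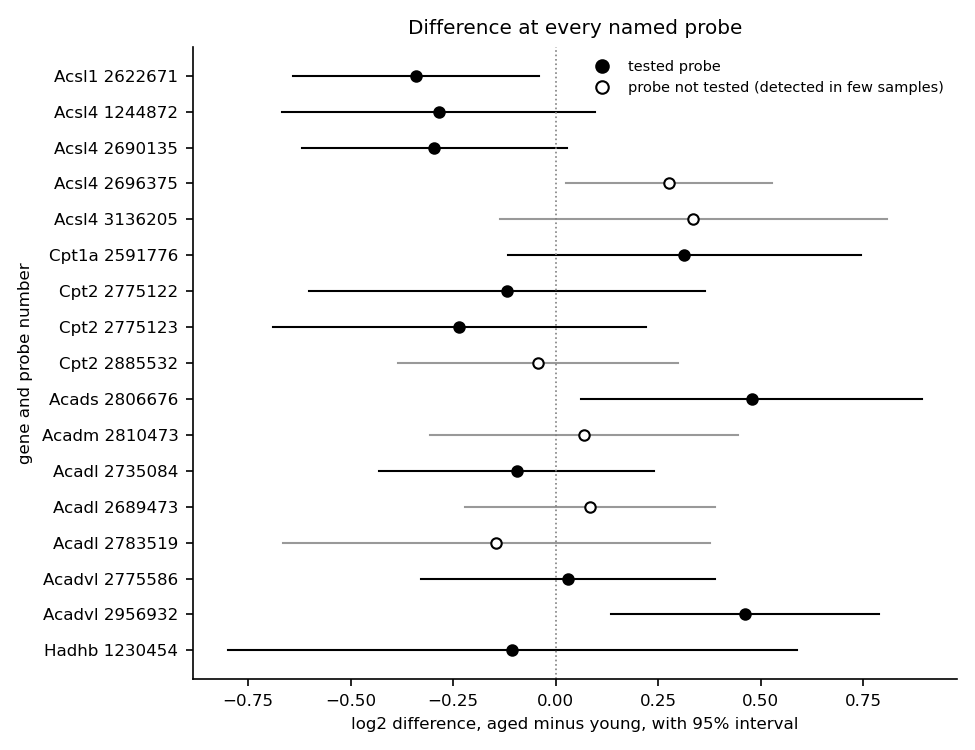
The log2 difference, aged minus young, is plotted with its 95% interval for the 17 named probes, with filled points for the 11 tested probes and open points for those detected in too few samples (fit over all probes). The intervals lie off 0 at Acsl1, Acads, 1 probe of Acadvl and 1 untested probe of Acsl4, and the open points of Acsl4 lie on the other side of 0 from its filled points.

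The carnitine shuttle was represented by Cpt1a and Cpt2. Cpt1a, in the outer mitochondrial membrane, forms acylcarnitine and is the step that malonyl-CoA inhibits. At ILMN_2591776 its young samples had a lowest log2 signal of 7.82, a median of 8.38 and a highest of 8.81, and the aged 7.89, 8.63 and 9.45. The aged samples spread more widely, with 2 above all young samples and 2 below the young median. The log2 difference was 0.31 (95% interval -0.12 to 0.74, adjusted p = 0.539, limma). Under the 75th percentile scaling it was 0.49 (unadjusted p = 0.0433, limma). Leaving out aged sample 2 gave 0.15, and leaving out aged sample 4 gave 0.46. Cpt1a was detected in 6 young and 5 aged samples.

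Cpt2, which returns the acyl group to coenzyme A inside the mitochondrion, had 2 tested probes. At ILMN_2775122 the log2 signal ran from 7.91 over a median of 8.70 to 9.58 in young samples and from 8.08 over 8.57 to 8.99 in aged, so that the aged lay inside the young range. The difference was -0.12 (95% interval -0.60 to 0.36, adjusted p = 0.875, limma), and it was -0.01 without young sample 1. At ILMN_2775123 it was -0.23 (95% interval -0.69 to 0.22, adjusted p = 0.698), with all 6 aged samples below the young median, and -0.12 without young sample 1. The third probe, ILMN_2885532, was detected in 1 young and 1 aged sample and had a difference of -0.04 in the fit of all probes.

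Acyl-CoA dehydrogenases remove the first hydrogens of each round, Acads on short, Acadm on medium and Acadl and Acadvl on long and very long chains. Acads had 1 probe, ILMN_2806676, detected in all 15 samples. Its log2 signal was 8.44 at the lowest, 8.78 at the median and 9.18 at the highest in young samples, and 8.72, 9.39 and 9.69 in aged. Of the aged samples 4 lay above every young sample, while the lowest aged sample lay below the young median. The young mean was 8.83 ± 0.30 (SD, n = 9) and the aged mean 9.31 ± 0.37 (SD, n = 6), which is a ratio of 1.39. The log2 difference was 0.48 with a 95% interval of 0.06 to 0.89 (unadjusted p = 0.026, adjusted p = 0.275, limma). Leaving out single samples gave differences of 0.40 to 0.60, and the unadjusted p was above 0.05 without young sample 7 (0.0504), aged sample 2 (0.0675), aged sample 4 (0.0632) or aged sample 5 (0.0535), in the limma fit.

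Acadm could not be tested. Its probe ILMN_2810473 passed detection in only 2 young and 4 aged samples, and its difference was 0.07 with a 95% interval of -0.31 to 0.44 in the fit of all probes. Acadl had 3 probes, of which ILMN_2735084 was tested. Its log2 signal was 8.28 at the lowest, 8.68 at the median and 8.87 at the highest in young samples, and 7.94, 8.56 and 8.81 in aged. The groups lay over each other apart from aged sample 4, the lowest. The difference was -0.10 (95% interval -0.43 to 0.24, adjusted p = 0.848, limma), and it was 0.02 without aged sample 4. The other probes of Acadl were detected in 1 young and 2 aged samples (ILMN_2689473) and in 1 young and 1 aged sample (ILMN_2783519), with differences of 0.08 and -0.14.

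Acadvl, bound to the inner mitochondrial membrane, gave different values at its 2 probes, both of which are listed for NM_017366. At ILMN_2956932 the log2 signal was 7.79 at the lowest, 8.32 at the median and 8.53 at the highest in young samples, and 8.22, 8.70 and 9.12 in aged. Here 4 aged samples lay above every young sample, and 3 of 9 young samples lay below every aged sample. The young mean was 8.23 ± 0.26 (SD, n = 9) and the aged mean 8.69 ± 0.33 (SD, n = 6), a log2 difference of 0.46 with a 95% interval of 0.14 to 0.79 (unadjusted p = 0.00782, adjusted p = 0.162, limma). It was the 532nd smallest p of the tested probes. Without any 1 sample the difference was 0.38 to 0.56, and the smallest adjusted p was 0.0559, without aged sample 2. The probe was detected in 6 young and 5 aged samples.

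The other probe of Acadvl, ILMN_2775586, was detected in 8 young and all 6 aged samples. Its log2 signal was 8.27 at the lowest, 8.70 at the median and 9.22 at the highest in young samples, and 8.52, 8.74 and 9.06 in aged. All aged samples lay within the young range. The difference was 0.03 with a 95% interval of -0.33 to 0.39 (adjusted p = 0.966, limma), and it was -0.03 without young sample 2 or without aged sample 1.

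The question whether the probes of 1 gene moved alike was put to the 3 pairs of tested probes. For Acadvl the difference between ILMN_2775586 and ILMN_2956932 averaged 0.51 ± 0.35 (SD, n = 9) among young samples and 0.07 ± 0.41 (SD, n = 6) among aged ones, a shift of -0.43 with a 95% interval of -0.86 to -0.01 (two-sided exact permutation test over 5005 splits, p = 0.0496, adjusted over 3 pairs 0.149). Under scaling by the 75th percentile of the arrays the shift was -0.36 (exact p = 0.145). Acadvl was chosen with its higher value in these aged samples already reported, so that the p-values of its pair are given as a description. For Acsl4 the shift was 0.01 (95% interval -0.18 to 0.20, exact p = 0.910), and for Cpt2 it was 0.12 (95% interval -0.14 to 0.37, exact p = 0.342). Over the 15 samples, after subtraction of the age group means, the probes of the pair correlated with r = 0.854 for Acsl4, 0.881 for Cpt2 and 0.046 for Acadvl. These r values share arrays and normalization and are given as a description.

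**Figure D3:**
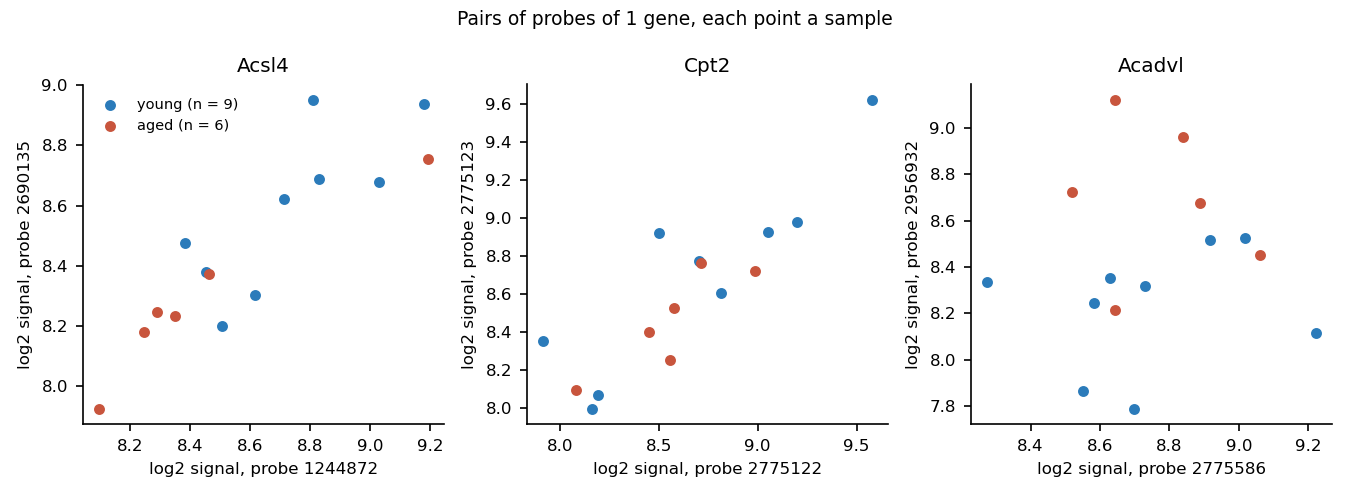
Each panel plots the log2 signals of 2 probes of 1 gene against each other, with 1 point for each of the 9 young and 6 aged samples. The points of Acsl4 and Cpt2 follow a line (r = 0.854 and 0.881 within age groups), whereas those of Acadvl do not (r = 0.046), and 4 of the 6 aged points of Acadvl lie above all young points on the vertical axis.

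When the dim probes were included, a choice made after the opposite signs at Acsl4 had been seen, 13 pairs could be compared. The pairs with the smallest p set ILMN_2696375 of Acsl4 against the tested probes of that gene, with shifts of -0.56 for ILMN_1244872 (exact permutation p = 0.0106) and -0.57 for ILMN_2690135 (exact permutation p = 0.00819), both with an adjusted p of 0.0688. ILMN_2690135 and ILMN_2696375 are listed for the same accession, NM_207625. Both pairs share ILMN_2696375 and are not independent, and as they were added after the signs were seen, their p-values are no fair test.

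Hadhb, the thiolase subunit of the trifunctional protein, was detected in all 15 samples at ILMN_1230454. Its log2 signal was 8.54 at the lowest, 9.32 at the median and 11.40 at the highest in young samples, and 8.65, 9.30 and 9.91 in aged. The medians were close, and young sample 2 stood apart, with the next highest young sample at 9.58. The young mean was 9.40 ± 0.84 (SD, n = 9) and the aged mean 9.30 ± 0.45 (SD, n = 6). The log2 difference was -0.11 with a 95% interval of -0.80 to 0.59 (adjusted p = 0.931, limma). It was 0.14 without young sample 2 and 0.02 without aged sample 4. Hadha, the subunit with the hydratase and dehydrogenase activities, had no named probe, and the planned relation between the subunits was not analysed here.

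After subtraction of the age group means, at the brightest tested probe of each of the 8 genes, the correlations between pairs of members over 15 samples ran from -0.727 for Acsl1 with Acads, and -0.617 for Acsl1 with Cpt2, to 0.372 for Cpt1a with Acadl. At Acadvl the probe used, ILMN_2775586, correlated with the other probe of the gene at only 0.046. Repeat arrays of young samples 3 and 4 differed by medians of 0.32 and 0.31 at the member probes, and the part of such error in low correlations was not tested. The tested probe most like Hadhb in this measure belonged to Gorasp1 (r = 0.921), a Golgi stacking protein, followed by Epas1 (0.895) and Lrrfip2 (0.861). Young sample 2 weighs heavily in the correlations of Hadhb, with a signal of 11.40 against a young mean of 9.40, and they were not computed without it. Those most like Acsl4 belonged to Maea (0.906), Pdhb (0.886), a subunit of pyruvate dehydrogenase, and Specc1l (0.856). For Cpt1a they were Dedd (0.890), Gpnmb (0.860) and Adnp (0.855), for Acadvl Tmpo (0.865), Saraf (0.836) and Kmt2c (0.830), and for Cpt2 Gdi2 (0.861), Kctd20 (0.853) and Wdr75 (0.841). For Acsl1 they were Syne1 (0.839), Cyb5a (0.806) and Pts (0.806), for Acads Trrap (0.824), Pcmt1 (0.798) and Mrpl17 (0.781), and for Acadl Ogt (0.771), Strap (0.764) and Rnf125 (0.755). These are the highest of many correlations on shared arrays and carry no test.

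The difference between the 2 arrays of 1 sample holds the error of both arrays. Across the 11 tested member probes, the repeat arrays of young sample 3 differed by 0.01 to 0.69 on the log2 scale (median 0.32) and those of young sample 4 by 0.09 to 0.70 (median 0.31).

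The wider pathway was read from 105 further genes in 11 lists, of which 76 had a named probe and 39 were tested, at the brightest probe of each gene. None of the 39 differed at an adjusted p under 0.05 in limma, and none at an unadjusted p under 0.05, in limma or the methods' t-test. The unadjusted count was 5 of 76 without the filter on dim probes, 2 of 39 with the sample number as a block, 1 of 36 with only the second of the repeat arrays, and 0 to 3 when 1 sample was left out, the highest without aged sample 2. Among all 6289 named genes tested, the adjusted threshold was passed upwards by 71 and downwards by 24, and the unadjusted one by 568 and 365. The mean was higher in the aged for 24 and lower for 15 of the 39, against 3056 and 3233 of all named genes. The median log2 difference was 0.09, against -0.01 over all named genes. Under the 75th percentile scaling 29 were higher and 10 lower. That scaling also raised the median over all tested probes, from -0.01 to 0.05, so that the change in counts is not particular to the pathway.

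Among genes that act beside the members, Slc25a20, the carrier that moves acylcarnitine between Cpt1a and Cpt2, had a log2 difference of 0.31 (standard error 0.18, adjusted p = 0.479, limma), with all 6 aged samples above the young median. All 3 tested genes of the shuttle list had means above those of the young, as did 48.2% of all tested probes. The difference was 0.19 for Cpt1b, the muscle form of the first transferase, and 0.11 (0.22 under the 75th percentile scaling) for Slc22a5, a carnitine transporter. Of the other synthetases, Acss1, which activates acetate in mitochondria, had a difference of 0.51 (adjusted p = 0.458), Acsl3 one of -0.41 (adjusted p = 0.511) and Acsl5 one of 0.13 (0.25 under the 75th percentile scaling). Electron transfer from the dehydrogenases had values on both sides of 0, -0.20 for Etfb and -0.15 for Etfa (-0.02 and 0.03 under the 75th percentile scaling), and 0.16 for Etfdh, which passes the electrons to ubiquinone. Gcdh, a dehydrogenase of lysine breakdown, had 0.11.

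The later enzymes of the round had small differences, 0.20 for Hsd17b10, -0.09 for Echs1 and -0.07 for Hadh, and Ech1, an isomerase for unsaturated chains, had -0.20. Echs1, Hadh and Ech1 had -0.06, -0.11 and -0.11 under the 75th percentile scaling. Of 7 tested peroxisomal genes, Pecr, which reduces unsaturated acyl-CoA, had the largest difference of all 39 genes, 0.76 (standard error 0.38, adjusted p = 0.371, limma), followed by Abcd3 (0.41), an importer of the peroxisome, and Acox3 (0.21, or 0.35 under the scaling), an oxidase. Acaa1a, a thiolase named for its high signal, had -0.08, and 0.12 under the 75th percentile scaling. Of 6 acyl-CoA thioesterases, which undo the activation, Acot7 had -0.52 (-0.30 under that scaling), Acot8 0.31 and Acot1 -0.15.

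Uptake and synthesis had no tested gene past the threshold either. Cd36, a fatty acid translocase, had -0.19, Fabp4, a binding protein, 0.35 and Dbi, which binds acyl-CoA, 0.07. Fabp4 and Dbi had 0.54 and 0.31 under the 75th percentile scaling. The means of all 5 tested synthesis genes were higher in the aged, against 48.2% of all tested probes, with 0.36 for the elongase Elovl5, 0.18 for Acly, 0.16 for Srebf1, 0.14 for Mecr and 0.05 for Mcat. The smallest unadjusted p among them was 0.16, for Elovl5 (limma). The signs were the same under each of the 4 scalings tried, which share the same samples and are not independent. Those of Acly, Srebf1 and Mcat were 0.41, 0.27 and 0.20 under the 75th percentile scaling. The regulator Nrf1 had 0.34 and Oxct1, an enzyme of ketone body use, -0.15 (-0.01 under the scaling). The paper lists Oxct1, and also Ppard, as higher in the aged in these samples. The value of Oxct1 here was read at its brightest tested probe alone. Several regulators of the pathway were too dim to be tested, with Ppard, a nuclear receptor, detected in 0 young and 5 aged samples, Esrra in 3 and 4, and Ppargc1b in 3 and 2. Ppara, Ppargc1a and Fasn had no named probe.

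**Figure D4:**
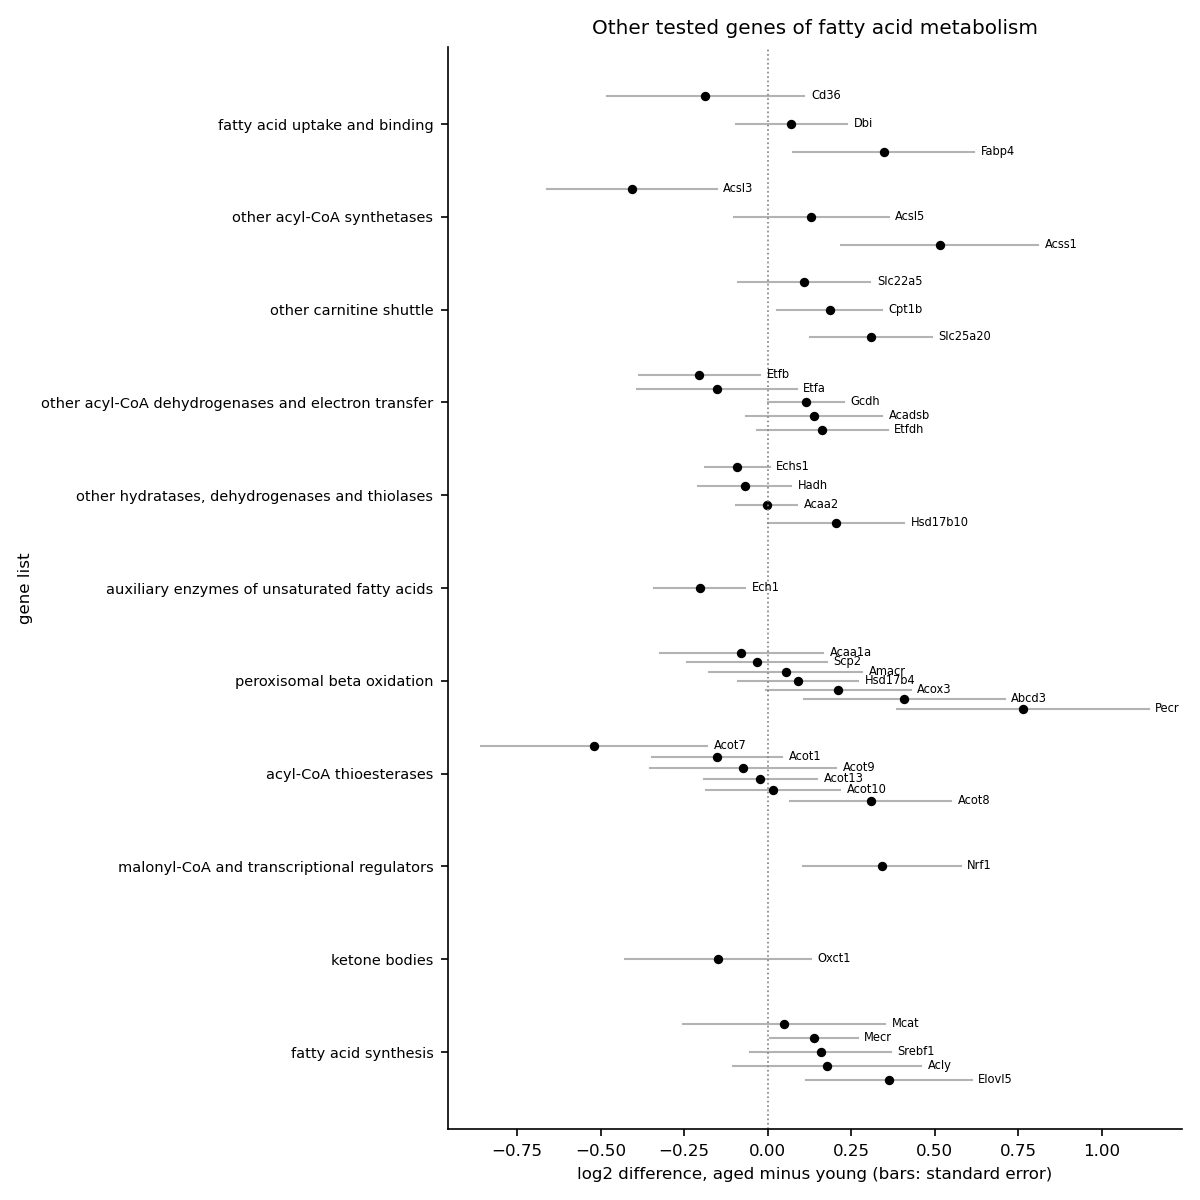
The log2 difference, aged minus young, is plotted with its standard error for the 39 tested genes of the pathway lists, grouped by list. Of them 24 lie above 0 and 15 below, from -0.52 for Acot7 to 0.76 for Pecr, and none passed the test. Under the 75th percentile scaling 29 lie above 0 and 10 below, and the median over all tested probes rose from -0.01 to 0.05 as well.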

How the data were processed

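Deposited by the authors were intensity values, the mean signal of each probe on each array with no normalization, and beside them a detection p-value. A deposited table of quantile normalized intensity was used as an alternative. The genes and lists were chosen with earlier results of these data known.

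Signals were quantile normalized, transformed to log2 and averaged over repeat arrays (limma 3.58.1, R 4.3.3, data.table version 1.17.8). Aged and young samples were compared in limma (two-sided, trend on intensity), p-values were adjusted by Benjamini-Hochberg over all 11073 probes tested, and the threshold was 0.05. The fit was tested on simulated data. Pairs of probes of 1 gene were compared with exact permutation tests. Probe names came from the platform annotation, in which 20873 probes carry 1 gene name and 9 carry several. Differences between probes of 1 gene were read only as shifts between the age groups, since signals of different probes are not on 1 scale, and the highest mean signal served only to choose a probe. The number of arrays limits the precision.

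All 10 genes were described at every named probe. Of the lists, up to 3 genes with the smallest p and the brightest were named, Etfa, Mcat and the dim or unnamed genes being added after their values were seen. Alternatives were other scalings, normexp background correction, other filters, the methods' t-test, single repeat arrays and leaving out samples. Plots were made in Python with pandas 2.3.3 and matplotlib 3.10.9.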

Additional observations from a re-analysis of the deposited data

Results flagged for a closer look

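In each age group, the highest and the lowest sample of each of the 17 member probes were compared with the rest by Dixon's ratio, the gap to the nearest sample over the range of the group. Of 34 such groups 4 had a sample beyond the 95% critical value, where chance marks about 1 in 20. Young sample 2 was high at Hadhb, with a log2 signal of 11.40 against 8.54 to 9.58 in the other 8 young samples. It was also high at the dim probe ILMN_2783519 of Acadl, with 9.70 against 7.41 to 7.96. Young sample 9 was high at the dim probe ILMN_2885532 of Cpt2, with 9.18 against 7.80 to 8.06, and the tested probes of Cpt2 had 8.70 and 8.77 in this sample. Aged sample 4 was high at ILMN_1244872 of Acsl4, with 9.19 against 8.10 to 8.46 in the other aged samples, and it was also the highest aged sample at ILMN_2690135, with 8.76. All 4 signals were called detected, and their causes were not tested.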

How the results depend on the processing

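No member probe and no pathway gene passed the adjusted threshold under any of the 10 other settings or without any 1 sample. The count over all tested probes was 153 and moved to 89 under scaling by the 75th percentile of each array, 45 without a filter on dim probes, 99 with the methods' t-test and 57 with the sample number as a replicate block, and leaving out 1 sample gave 63 (without aged sample 3) to 321 (without aged sample 2). Under that scaling the higher share of unadjusted calls was 80.1%, against 62.6% after quantile normalization. Samples of the same number deviated together with correlations of -0.10 to 0.23 and 2 of 6 matched best with their own number, so the numbers were not taken as pairs. With the block the difference of Acads was 0.39, that of Acsl1 -0.29 and that of Acadvl at ILMN_2956932 0.49, with unadjusted p of 0.106, 0.119 and 0.025 in limma. Normexp background correction gave larger differences, 0.90 for Acads, -0.86 for Acsl1 and 1.08 for Acadvl at ILMN_2956932 (adjusted p = 0.173 for the last).

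Small differences changed sign. Hadhb was 0.048 with the 75th percentile scaling and -0.228 to 0.144 without any 1 sample, Acadl at ILMN_2735084 -0.156 to 0.0176, Acadvl at ILMN_2775586 -0.0288 to 0.0907, and the shift between the Acsl4 probes -0.0467 to 0.0361. The shift between the Acadvl probes was -0.54 to -0.32 without any 1 sample (exact permutation p of 0.0195 to 0.127). The cause was not tested. The relation between Hadha and Hadhb was not run, because no probe was named for Hadha. The member signals lie near the background, where several probes were detected in part of the samples only, and this limits what can be seen.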
